A study of Homo sapiens with 2 samples.

Results

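The genes described are 32 enzymes and regulators of cholesterol and fatty acid synthesis, found by gene symbol in the gene files of both libraries, out of 36953 genes in those files. They comprise 18 enzymes of sterol synthesis, 6 genes of sterol transport and regulation and 8 enzymes of fatty acid synthesis. All 32 passed the minimum of 100 reads over both libraries, which 15382 genes reached. Polyadenylated RNA was sequenced from MIP/5FU and from MIP101, 1 library of each. MIP/5FU is a single clone that came through passage of MIP101 in rising amounts of 5-fluorouracil (5-FU), a pyrimidine analog used against colorectal cancer. Its IC50 for 5-FU was 10-fold higher and it was kept in 5 µM of the drug. MIP101 is the 5-FU sensitive parental line, human colorectal cancer cells from a liver metastasis, and was kept without drug. Both lines were grown in medium with 10% newborn calf serum, a source of lipids, and both cultures spent about 48 hours free of drug before RNA was isolated.

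Cells build cholesterol from acetyl-CoA by way of mevalonate, farnesyl diphosphate, squalene and lanosterol, and build fatty acids from the same acetyl-CoA through malonyl-CoA. Most of these enzymes are targets of the sterol regulatory element-binding proteins, transcription factors encoded by SREBF1 and SREBF2 that SCAP escorts out of the endoplasmic reticulum when sterols are scarce and that INSIG1 and INSIG2 hold back when sterols are plentiful. Many colorectal tumours make fatty acids at a high rate, and FASN and SCD are abundant in them.

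Reads on genes numbered 109693681 in MIP/5FU and 200141071 in MIP101. With 1 library per line there is no replicate check: each interval below covers counting error only. The libraries went through 10 cycles of PCR and no molecular identifiers are described, so a read is not an independent molecule and the intervals are too narrow. Ratios are log2 of MIP/5FU over MIP101 after scaling to gene reads, except those from summed junction reads. Those were scaled to all junction reads, 13022878 in MIP/5FU and 24925624 in MIP101. A gene was counted as higher or lower where the ratio was 1.5-fold or more and its 95% interval excluded 0. RPM stands for reads per 1000000 gene reads. The median ratio of all tested genes was 0.03, and other scalings moved every gene ratio by -0.03 or -0.05. The summed level of 9 colon epithelium markers was 8761 RPM in MIP/5FU and 7861 in MIP101, led by the keratins KRT8 and KRT18, and CDX2 was present in both; the ratio of KRT20 was 2.76, of VIL1 -1.23 and of LGALS4 -1.31. Among markers of other cell types, summed over the tested genes of each list, those of hepatocytes (5 of 12 tested) had 8.63 RPM in MIP/5FU and 10.5 in MIP101, with HPX at 141 and 123 reads (ratio 1.06) and APOA1, APOA2, APOC3 and TTR at 0 in both lines. Adipocyte markers (4 of 7 tested) had 5.11 RPM in MIP/5FU and 4.49 in MIP101, with FABP4 and CIDEA at 0 in both. Blood and immune markers (3 of 8 tested) had 3.32 RPM in MIP/5FU and 2.37 in MIP101, with HBB at 0 in both. Fibroblast and endothelial markers (3 of 8 tested) had 16.98 RPM in MIP/5FU and 20.97 in MIP101, with COL1A2 and CDH5 at 0 in both. In that list the collagen gene COL3A1 had 38 reads in MIP/5FU and 1659 in MIP101, a ratio of -4.56 (-5.08 to -4.12). The part of these markers in the results below was not tested.

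Most genes of the pathway had ratios below 0, and 7 of them were lower in MIP/5FU by 1.5-fold or more. Of the 32 genes, 28 had a ratio below 0 and 4 above it, against 46.3% of all tested genes below 0 and 53.7% above. With median-ratio or TMM scaling 29 of the 32 lay below 0, against 50% and 52% of all tested genes. At 1.5-fold, 7 were lower, beside 8.14% of all tested genes, and 1 was higher, beside 8.67%. Each of the 32 had at least 500 reads, and among the 12400 genes with as many, 48.6% lay below 0, 7.38% were lower at 1.5-fold and 6.6% higher. The 7 lower genes were ACAT2, FDPS, TM7SF2, HSD17B7, FASN, ELOVL6 and SCD, and the higher gene was FADS2. At 2-fold, 0 were lower, beside 3.09% of all tested genes, and FADS2 was still higher, beside 2.53%. The 0 depended on the measure: SCD, at -0.97 here, was past 2-fold at -1.01 with median-ratio scaling, -1.02 with TMM factors, -1.03 by the median of its exon regions and -1.04 by junction reads. The median ratio of the 32 genes was -0.30, beside 0.03 over all tested genes. In 26 of the 32 the 95% interval lay wholly below 0, as it did in 35.7% of all tested genes, and in 4 wholly above, as in 39.8%. In RNA of whole cultures, less RNA of a gene per cell and fewer cells that express it cannot be told apart.

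**Figure D1:**
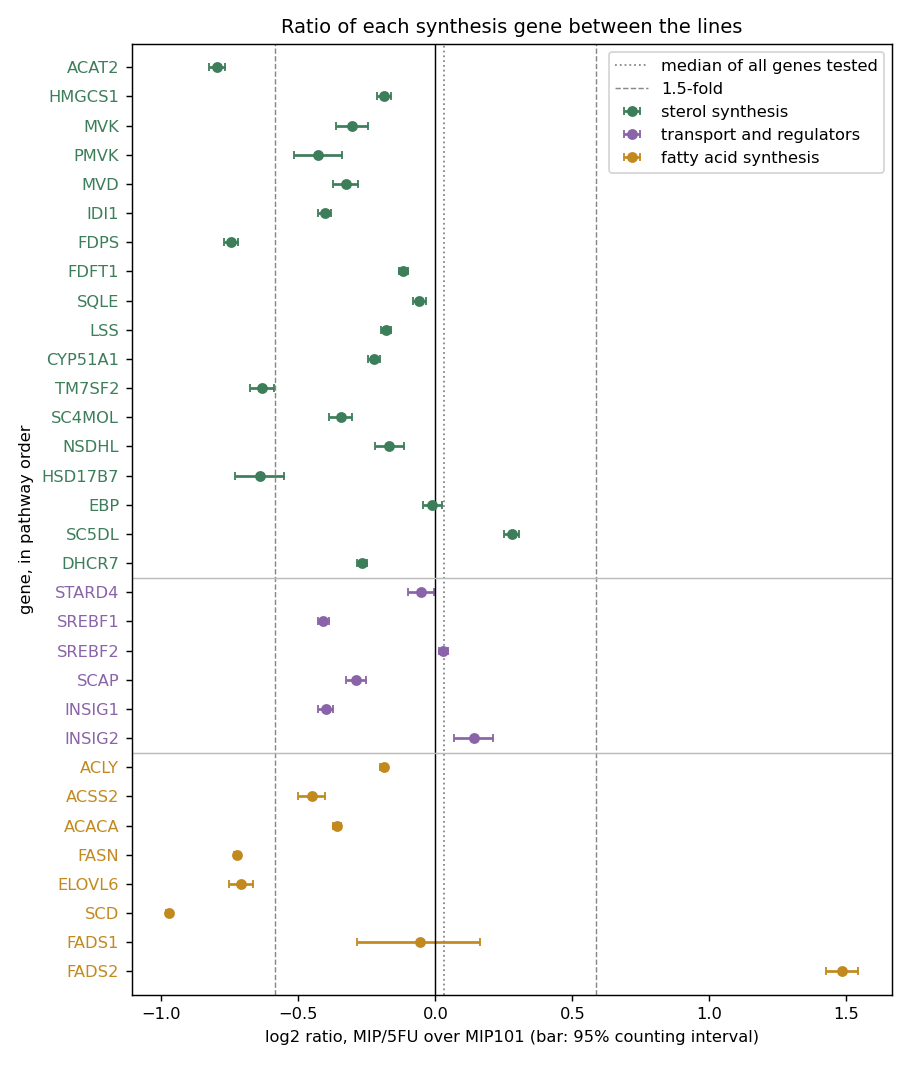
The log2 ratio of MIP/5FU over MIP101 for each of the 32 genes in pathway order, with 95% counting intervals; colours mark sterol synthesis, transport and regulators, and fatty acid synthesis, dashed lines 1.5-fold and the dotted line the median of all tested genes. Points lie left of 0 for 28 genes, 7 pass 1.5-fold lower, and FADS2 stands alone on the right at 1.48.

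Together the 32 genes took 7443 RPM in MIP/5FU and 10394 in MIP101, a sum 1.40-fold lower (95% interval 1.39 to 1.40) in the resistant clone. FASN and SCD alone gave 2634 RPM in MIP/5FU and 4710 in MIP101, which is 35.4% and 45.3% of the reads of the set. The other 30 genes summed to 4809 RPM in MIP/5FU and 5684 in MIP101. By stage, the summed reads of fatty acid synthesis were 1.593-fold lower (95% interval 1.587 to 1.598), those of the steps from acetyl-CoA to farnesyl diphosphate 1.42-fold lower (1.41 to 1.43), those from squalene to lanosterol 1.09-fold lower (1.08 to 1.10) and those from lanosterol to cholesterol 1.14-fold lower (1.13 to 1.14). In fatty acid synthesis, FASN and SCD gave 2634 of 3875 RPM in MIP/5FU and 4710 of 6172 in MIP101, so they dominate its sum. The transport and regulator genes summed to 955 RPM in MIP/5FU and 1096 in MIP101, 1.15-fold lower.

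**Figure D2:**
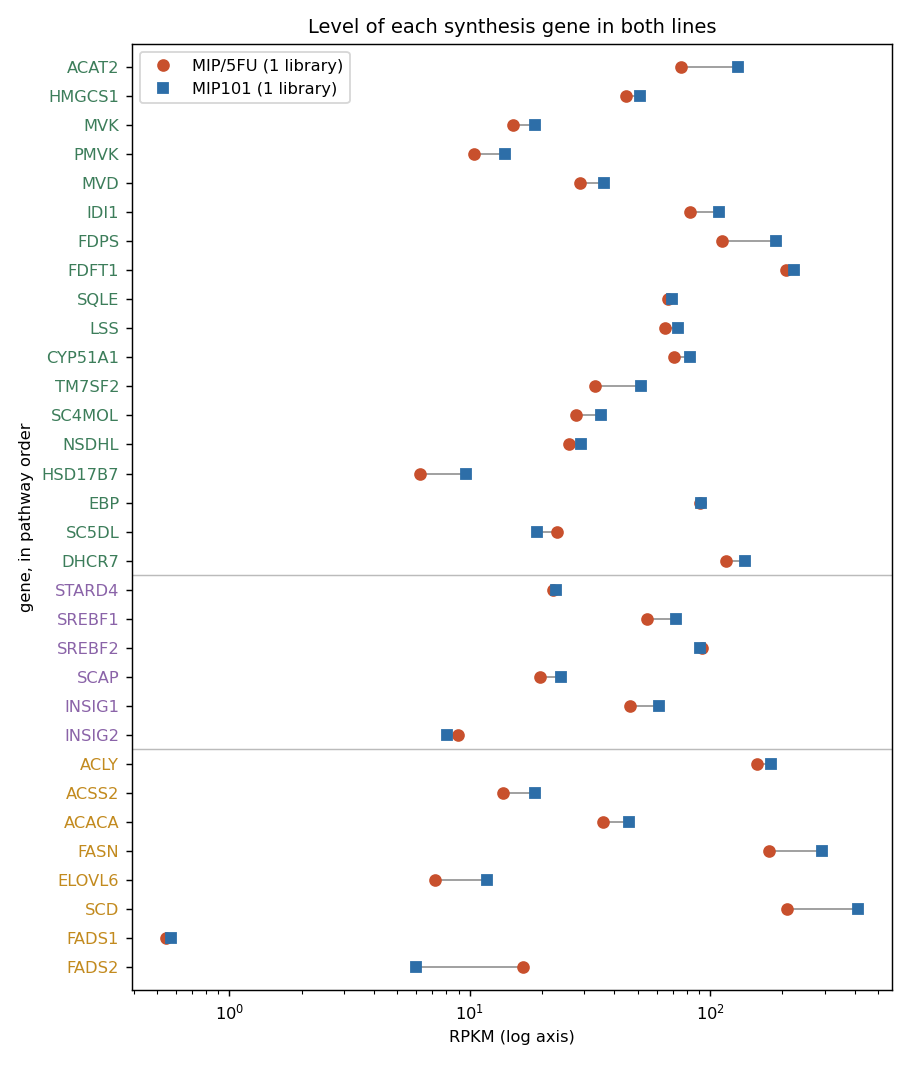
Level of each gene in reads per kilobase of exon per 1000000 gene reads (RPKM, log axis) in MIP/5FU (circles) and MIP101 (squares), 1 library each, in pathway order. SCD was the most abundant of the 32 genes in both lines, at 210 RPKM in MIP/5FU and 412 in MIP101, and FADS1 the least abundant, under 1 RPKM in both.

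Promoters are shown for 5 of the 7 lower genes, those for which a window was given, and for SREBF2. The SREBF2 window was picked because it held the letters TCACNCCAC. Windows of the other regulators, SREBF1, SCAP, INSIG1 and INSIG2, are not printed. The sequences are RefSeq promoter windows on GRCh38.p14, each of 300 bases, which cover 250 bases before the start site and 50 from it on. The table held 28 of the 32 genes with 39 windows; ACAT2, FDFT1, SQLE and FASN had none. Capitals mark the letters CCAAT (the box of NF-Y), GGGCGG (the GC box of Sp1 proteins) and TCACNCCAC with the base before it (the shape of a sterol regulatory element), on either strand. The windows are FDPS at chr1:155308616-155308915, TM7SF2 at chr11:65111622-65111921, HSD17B7 at chr1:162790452-162790751, SCD at chr10:100346983-100347282 and SREBF2 at chr22:41832855-41833154, all on the plus strand, and ELOVL6 at chr4:110198566-110198865 on the minus strand.
FDPS: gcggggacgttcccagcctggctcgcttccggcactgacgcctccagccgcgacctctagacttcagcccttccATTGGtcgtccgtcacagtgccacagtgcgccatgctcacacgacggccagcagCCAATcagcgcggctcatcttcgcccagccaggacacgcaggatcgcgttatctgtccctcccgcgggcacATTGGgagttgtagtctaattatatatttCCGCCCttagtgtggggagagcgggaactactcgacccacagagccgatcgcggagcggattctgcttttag
TM7SF2: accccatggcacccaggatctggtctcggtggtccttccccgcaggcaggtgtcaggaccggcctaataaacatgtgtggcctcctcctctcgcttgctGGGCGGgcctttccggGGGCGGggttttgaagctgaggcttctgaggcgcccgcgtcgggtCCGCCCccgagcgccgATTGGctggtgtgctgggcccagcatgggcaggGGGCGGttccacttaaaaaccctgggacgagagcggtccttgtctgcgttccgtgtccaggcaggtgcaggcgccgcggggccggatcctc
HSD17B7: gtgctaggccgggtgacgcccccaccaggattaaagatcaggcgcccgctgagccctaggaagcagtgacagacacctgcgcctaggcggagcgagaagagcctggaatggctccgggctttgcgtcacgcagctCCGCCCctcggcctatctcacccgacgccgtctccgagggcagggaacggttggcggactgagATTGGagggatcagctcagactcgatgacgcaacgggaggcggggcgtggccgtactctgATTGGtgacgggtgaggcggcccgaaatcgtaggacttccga
SCD: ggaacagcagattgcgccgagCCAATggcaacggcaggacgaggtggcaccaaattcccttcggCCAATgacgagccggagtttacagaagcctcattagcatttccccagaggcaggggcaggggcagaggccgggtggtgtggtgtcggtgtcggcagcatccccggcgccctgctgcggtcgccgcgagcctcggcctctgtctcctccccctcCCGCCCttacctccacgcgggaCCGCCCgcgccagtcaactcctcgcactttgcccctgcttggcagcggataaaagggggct
ELOVL6: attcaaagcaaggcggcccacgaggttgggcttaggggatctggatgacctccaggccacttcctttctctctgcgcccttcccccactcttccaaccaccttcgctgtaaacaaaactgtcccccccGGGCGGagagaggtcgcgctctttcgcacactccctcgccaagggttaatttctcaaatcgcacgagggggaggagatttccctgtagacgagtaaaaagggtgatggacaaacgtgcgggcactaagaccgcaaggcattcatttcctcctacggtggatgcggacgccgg
SREBF2: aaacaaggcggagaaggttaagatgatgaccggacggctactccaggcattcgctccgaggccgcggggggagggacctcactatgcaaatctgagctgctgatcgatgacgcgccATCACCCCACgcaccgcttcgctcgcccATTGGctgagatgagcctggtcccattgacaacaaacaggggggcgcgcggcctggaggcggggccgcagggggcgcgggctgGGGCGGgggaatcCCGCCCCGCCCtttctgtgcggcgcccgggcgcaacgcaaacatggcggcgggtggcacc
The FDPS window held 3 CCAAT boxes, which began 176, 122 and 51 bases before the start site, and the SCD window held 2, at 229 and 186 bases before it. ELOVL6 held no CCAAT box and 1 GC box. SREBF2 was the only one of the 28 genes with TCACNCCAC in its window, and the match began 133 bases before the start site. Forms of the element that depart from these letters were not searched for.

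Over all windows of the set, CCAAT on either strand was present in 25 of 39 (64.1%), in 21 of the 28 genes, beside 34.6% of all 35116 windows and 34.5% of the 13230 windows of tested genes. GGGCGG was present in 35 of 39 (89.7%), beside 45.0% of all windows and 63.9% of those of tested genes. CACGTG, an E-box that the same family of factors can bind, was present in 5 of 39 (12.8%), beside 7.26% of all windows and 9.02% of those of tested genes. TCACNCCAC was present in 1 of 39 (2.56%), beside 1.13% of all windows and 1.06% of those of tested genes. MVK and NSDHL held 5 CCAAT boxes each and SC4MOL held 4. A match describes the letters of a window and shows no binding, and a window without a match is not shown to lack a site.

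All 7 genes of the steps from acetyl-CoA to farnesyl diphosphate had ratios below 0, of -0.80 to -0.19. ACAT2, the cytosolic thiolase that joins acetyl-CoA units (chr6:160103043-160120048, hg18), had 75.4 RPKM in MIP/5FU and 131 in MIP101, from 12063 and 38274 reads. It was 1.74-fold lower (95% interval 1.70 to 1.78). FDPS, farnesyl diphosphate synthase (chr1:153545331-153557080), had 112 RPKM in MIP/5FU and 188 in MIP101 and was 1.68-fold lower (1.65 to 1.71). These first and last enzymes of the stage were the only ones of the 7 counted at 1.5-fold.

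Between them, HMGCS1, which makes HMG-CoA, had 44.8 RPKM in MIP/5FU and 51.0 in MIP101 (ratio -0.19), the value nearest to 0 of this stage. The mevalonate kinase MVK had 15.2 RPKM in MIP/5FU and 18.7 in MIP101 (-0.30), and the phosphomevalonate kinase PMVK had 10.4 in MIP/5FU and 13.99 in MIP101 (-0.43). MVD, the decarboxylase that forms isopentenyl diphosphate, had 28.9 RPKM in MIP/5FU and 36.3 in MIP101 (-0.33). IDI1, the isomerase of isopentenyl diphosphate, had 82.2 RPKM in MIP/5FU and 109 in MIP101 (-0.40). All 5 were below MIP101 by less than 1.5-fold, with intervals that excluded 0. ACAT2 overlaps TCP1 on the opposite strand by 528 bases, and TCP1 had a ratio of -0.27; the library protocol as described marks no strand, so reads of the overlap cannot be told apart. RefSeq names 10 pseudogenes after FDPS and 3 after IDI1, and how reads were shared with them was not tested.

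The next 3 enzymes, from squalene to lanosterol, gave the summed stage with the smallest difference. FDFT1, squalene synthase, had 206 RPKM in MIP/5FU and 224 in MIP101, with a ratio of -0.12 (-0.13 to -0.10). SQLE, squalene epoxidase and a rate-limiting step of the sterol path, had 66.8 RPKM in MIP/5FU and 69.6 in MIP101, with a ratio of -0.06 (-0.08 to -0.03). LSS, which closes squalene epoxide to lanosterol, had 64.9 RPKM in MIP/5FU and 73.5 in MIP101, with a ratio of -0.18 (-0.20 to -0.16). None of the 3 reached 1.5-fold, and FDFT1 was the second most abundant of all 32 genes in MIP/5FU.

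Of the 8 enzymes from lanosterol to cholesterol, 2 were lower at 1.5-fold. TM7SF2, a sterol reductase (chr11:64635917-64640282), had 33.2 RPKM in MIP/5FU and 51.5 in MIP101 and was 1.55-fold lower (ratio -0.63, interval -0.68 to -0.59). HSD17B7, a ketosterol reductase (chr1:161027120-161049231), had 6.20 RPKM in MIP/5FU and 9.66 in MIP101 and was 1.56-fold lower (1.46 to 1.66). Both sat just past the size that counts, and the largest ratio short of it was that of ACSS2 at -0.45. RefSeq names 2 pseudogenes after HSD17B7.

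The other enzymes of this stage lay closer to 0. CYP51A1, the lanosterol demethylase, had 70.7 RPKM in MIP/5FU and 82.6 in MIP101 (-0.22). SC4MOL, a methylsterol oxidase now named MSMO1, had 27.8 RPKM in MIP/5FU and 35.3 in MIP101 (-0.35), and NSDHL, the dehydrogenase that acts with it, had 25.8 in MIP/5FU and 29.04 in MIP101 (-0.17). DHCR7, the last reductase in one branch of the path, had 116 RPKM in MIP/5FU and 140 in MIP101 (-0.27). These 4 were below MIP101 with intervals that excluded 0.

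EBP and SC5DL did not follow. EBP, the sterol isomerase, had 91.1 RPKM in MIP/5FU and 91.8 in MIP101, and its interval of -0.05 to 0.02 included 0. By junction reads, scaled to all junction reads, its ratio was 0.07 (-0.04 to 0.17). The scaling differs from that of the gene ratio, so the change of sign does not show a difference in spliced RNA. SC5DL, a sterol desaturase now named SC5D, had 23.1 RPKM in MIP/5FU and 19.1 in MIP101, a ratio of 0.28 (0.25 to 0.31). It was the only one of the 18 sterol enzymes above 0, and was not counted at 1.5-fold.

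Among the regulators the 2 SREBF genes gave unlike values. SREBF1 had 54.6 RPKM in MIP/5FU and 72.4 in MIP101, a ratio of -0.41 (-0.43 to -0.39). SREBF2, whose promoter is printed above, had 92.4 RPKM in MIP/5FU and 90.6 in MIP101, a ratio of 0.03 (0.01 to 0.05) that was below 0 under both other scalings. INSIG1, itself a target of the pathway it restrains, had 46.2 RPKM in MIP/5FU and 61.0 in MIP101 (-0.40), while INSIG2, its paralog, had 8.91 in MIP/5FU and 8.08 in MIP101 (0.14). SCAP had 19.6 RPKM in MIP/5FU and 23.9 in MIP101 (-0.29), and STARD4, a carrier of sterols between membranes, had 22.1 and 22.9, a ratio of -0.05. By junction reads, scaled to all junction reads, the ratio of STARD4 was 0.15, with an interval of -0.05 to 0.34 that included 0. None of the 6 was counted at 1.5-fold, and 4 of 6 lay below 0.

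Fatty acid synthesis held the lowest and the highest ratio of the set, those of SCD and FADS2. SCD, the desaturase that makes oleate from stearate (chr10:102096762-102114577), had 210 RPKM in MIP/5FU and 412 in MIP101, from 125839 and 450570 reads. It was 1.96-fold lower (1.95 to 1.97), and 500 of the 15382 tested genes had a lower ratio. FASN, fatty acid synthase (chr17:77629504-77649395), had 176 RPKM in MIP/5FU and 291 in MIP101, from 163125 and 492028 reads, and was 1.65-fold lower (1.64 to 1.66). ELOVL6, the elongase of palmitate (chr4:111186451-111339258), had 7.21 RPKM in MIP/5FU and 11.8 in MIP101 and was 1.63-fold lower (1.58 to 1.69). These 3 act in sequence to make, lengthen and desaturate palmitate.

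The enzymes that supply them were lower by less. ACLY, which splits citrate to acetyl-CoA, had 157 RPKM in MIP/5FU and 178 in MIP101 (-0.19). ACSS2, which makes acetyl-CoA from acetate, had 13.7 RPKM in MIP/5FU and 18.7 in MIP101 (-0.45). ACACA, the acetyl-CoA carboxylase that commits acetyl-CoA to fatty acids, had 35.9 RPKM in MIP/5FU and 46.0 in MIP101 (-0.36). All 3 intervals excluded 0, and none of the 3 genes reached 1.5-fold.

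FADS2, a desaturase of polyunsaturated fatty acids (chr11:61340325-61391401), went the other way. It had 16.7 RPKM in MIP/5FU and 5.95 in MIP101, from 6026 and 3931 reads, and was 2.80-fold higher (ratio 1.48, interval 1.43 to 1.54). Only 123 of the 15382 tested genes had a higher ratio. Its paralog FADS1, which lies beside it head to head (chr11:61323679-61340886), had 0.548 RPKM in MIP/5FU and 0.571 in MIP101, from 252 and 479 reads, with an interval of -0.28 to 0.16. The genes overlap by 562 bases on opposite strands. FADS3, next to FADS2 on its other side, had 23.6 RPKM in MIP/5FU and 19.6 in MIP101, a ratio of 0.27.

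Reads along FADS2 were higher from exon region 3 to the last, region 13. The 11 tested regions had ratios of 1.28 to 1.69, and the last, of 1716 bases, had 3062 read equivalents in MIP/5FU and 1884 in MIP101. The first 2 annotated exon regions were almost unread in both lines, with 7.1 read equivalents in MIP/5FU and 5.2 in MIP101 on the first and with 0 in MIP/5FU and 1 in MIP101 on the second. The junctions from exon 1 and from exon 2 to exon 3 had 0 reads in both lines, while the junction from exon 3 to exon 4 had 129 reads in MIP/5FU and 71 in MIP101. The window before the annotated start of FADS2 is therefore not printed. FADS2 junction reads as a whole numbered 907 in MIP/5FU and 584 in MIP101, a ratio of 1.57.

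Of the FADS1 reads, most lay on the last exon region of 2832 bases, with 194 read equivalents in MIP/5FU and 342 in MIP101. The 11 regions before it summed to 42.2 read equivalents in MIP/5FU and 118 in MIP101, a ratio of -0.61 (-1.16 to -0.10). Over the 11 annotated FADS1 junctions there were 0 reads in MIP/5FU and 14 in MIP101, which is at least 2.44-fold lower when 3 reads are put in place of 0 and the junction totals are taken into account (interval limit nearer to 1, 1.73). In 10 consecutive exon regions that pair FADS1 with FADS2 in order, 9 had the same length in both genes and 1 differed by 3 bases. Whether reads were shared between the paralogs was not tested.

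**Figure D3:**
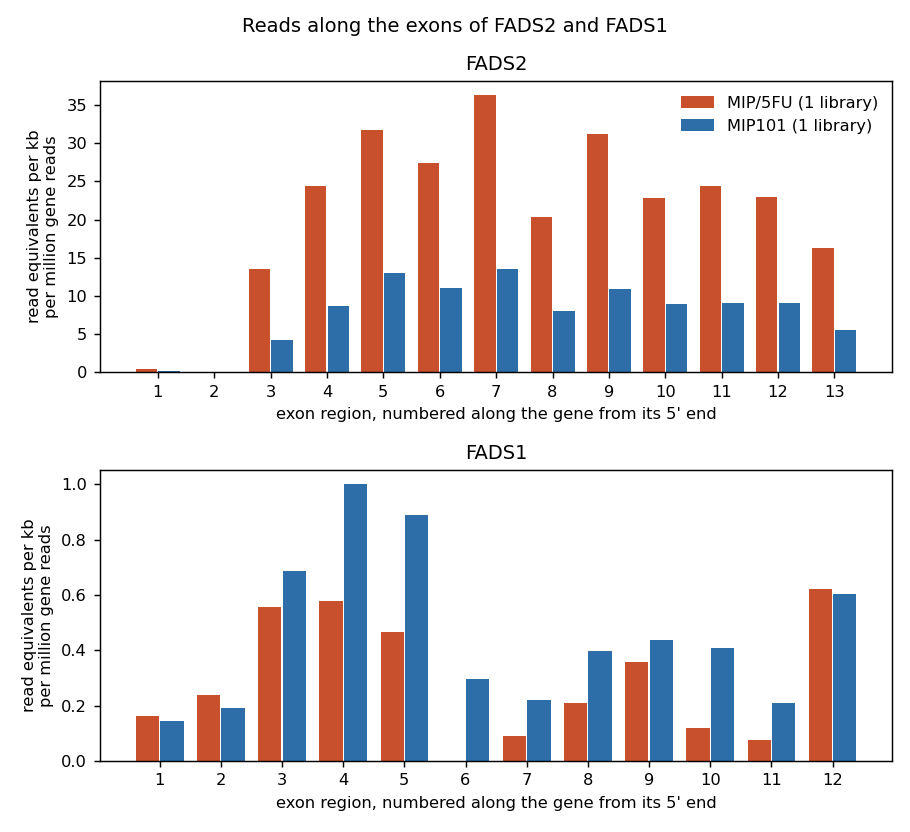
Read equivalents per kilobase per 1000000 gene reads on each exon region of FADS2 (top) and FADS1 (bottom), numbered from the 5' end, in MIP/5FU (left bar) and MIP101 (right bar), 1 library each. FADS2 bars are near 0 on regions 1 and 2 in both lines and taller in MIP/5FU on regions 3 to 13; FADS1 stays near or under 1 on every region.

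The series was made to find alternative expression, so each exon region, junction and transcript of the 32 genes was set against its own gene. Read equivalents are the bases of coverage of a feature over the mean bases per read. The index subtracts the log2 ratio of the whole gene from that of the feature, and was counted at an absolute value of 1 with an interval, leaving 0.1% of counting error outside, that excluded 0. Of 459 tested exon regions 0 were counted in either direction, beside 0.157% higher and 0.109% lower of all 139703 regions tested. Likewise 0 of 37 transcripts (all transcripts 0.48% higher and 0.191% lower) and 0 of 409 junctions (all junctions 0.055% higher and 0.0988% lower) were counted. Of the 459 regions, 402 had a ratio below 0, and in 20 genes every tested region did. The share of all tested regions below 0 was not computed. Regions of a gene repeat its ratio, and genes with many exons weigh most, so this count adds no evidence apart from the gene ratios. In SCD the 6 regions ran from -1.14 to -0.76 and in FASN the 43 regions from -0.85 to -0.44, so the lower level spread over the whole of both genes. Within 0.32 of their gene on the log2 scale lay 96.1% of the regions of the set, beside 90.6% of all regions tested.

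**Figure D4:**
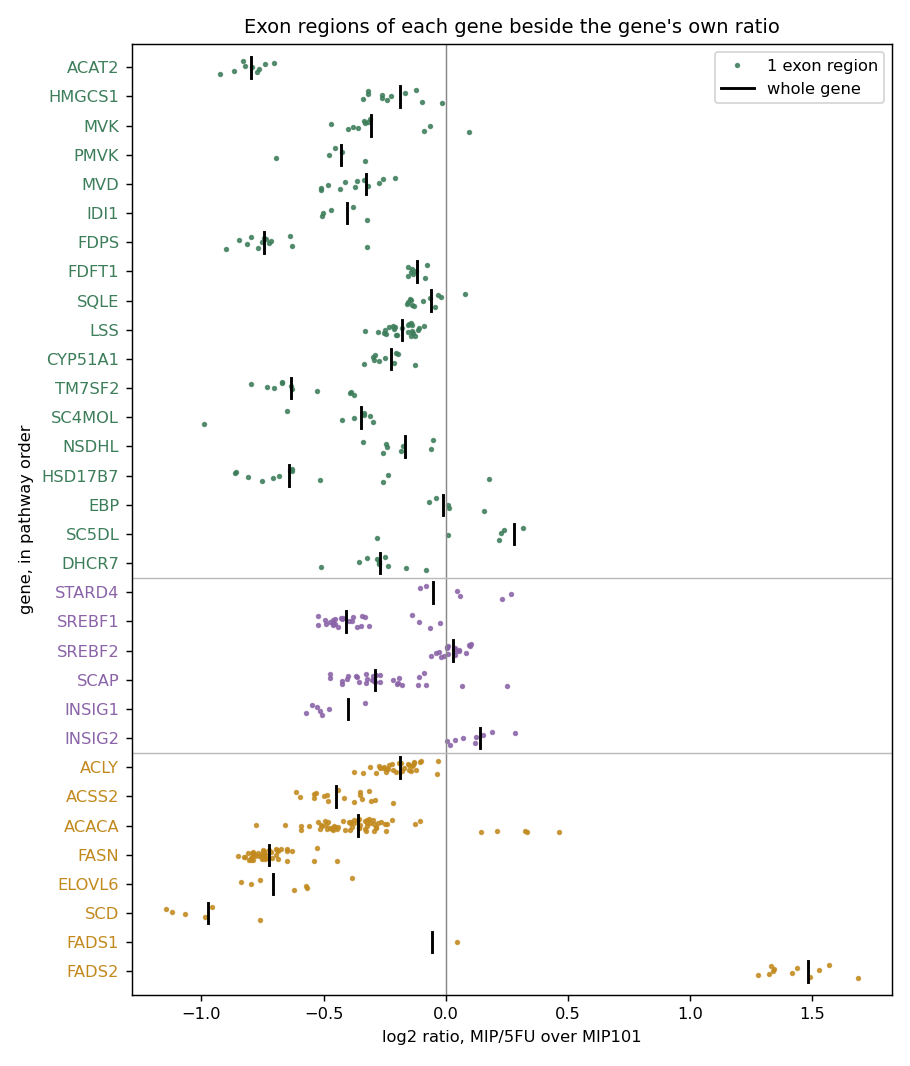
Log2 ratios of the tested exon regions of each gene (points) beside the ratio of the whole gene (black bars), MIP/5FU over MIP101, in pathway order. Points of SCD, FASN, ACAT2 and FDPS stay left of 0 throughout, those of FADS2 lie between 1.28 and 1.69, and a few ACACA points sit right of 0.

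ACACA was the gene whose regions spread most. Its exon region 1b, of 519 bases, had 272 read equivalents in MIP/5FU and 394 in MIP101, an index of 0.69 (0.31 to 1.07). It was the only region of the 459 past 1.5-fold with such an interval, beside 0.394% of all regions in this direction. In a split chosen after these values were seen, 5 of 8 tested regions of exons 1 to 10 had ratios above 0, and all 53 regions after them had ratios below 0. The first 10 exons summed to 1600 read equivalents in MIP/5FU and 3187 in MIP101 (-0.13, interval -0.21 to -0.04), and the later ones had a ratio of -0.37 (-0.38 to -0.35). Levels on the first 10 exons ran from 3.25 to 28.1 read equivalents per kilobase per 1000000 gene reads in MIP/5FU and from 2.36 to 35.2 in MIP101, below the 29.3 to 53.9 and 43.3 to 76.0 on the later exons. As background, ACACA starts from several promoters with leading exons of their own. The ACACA junction of exons 34 and 35 had 82 reads in MIP/5FU and 297 in MIP101, with an index of -0.62, the only junction past 1.5-fold with an interval excluding 0, beside 0.213% of all junctions in this direction. In SREBF1, which codes for several proteins through alternative first exons, exon region 1a had a ratio of -0.06 and an index of 0.34 (0.10 to 0.58), under the size that counts.

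Reads that ran across an exon-intron boundary, as unspliced RNA does, took a larger share of gene reads in MIP/5FU in part of the set. Such a share can rise with fewer gene reads as well as with more boundary reads, so it does not show more unspliced RNA. On boundaries without an Ensembl transcript, the 32 genes had 5.89 reads per 1000 gene reads in MIP/5FU and 5.09 in MIP101, and all genes had 9.48 and 8.84. Of the 31 genes with enough reads, 9 had a higher share with an interval excluding 0, beside 14% of all genes so tested, and 0 a lower one, beside 3%. The 9 were ACAT2, MVD, IDI1, FDPS, TM7SF2, INSIG1, ACSS2, FASN and FADS1. Of these, ACAT2, FDPS, TM7SF2 and FASN were themselves lower in MIP/5FU at 1.5-fold. INSIG1 had 4.04 per 1000 in MIP/5FU and 2.19 in MIP101, and FDPS had 16.4 and 11.6. By the index, 4 of 190 tested boundaries were higher, beside 0.738% of all boundaries, and 0 were lower, beside 0.119%. These were the donor of FDPS exon 6 with 51 reads in MIP/5FU and 78 in MIP101, the acceptor of FASN exon 35 with 24 and 25, the donor of FASN exon 38 with 16 and 8, and the acceptor of IDI1 exon 2 with 18 and 12. Set against the median boundary of its gene in place of the whole gene, 0 boundaries were higher and 1 was lower. Of 31 tested junctions that skip an exon, in 19 genes, none had an index interval excluding 0, with indices from -0.98 to 1.23. The share over all skipping junctions was not computed, and at this depth the absence of calls does not show unchanged splicing.

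Reads on annotated junctions, which come from spliced RNA alone, gave the same 7 genes lower at 1.5-fold, and FADS1 as well, on the 0 and 14 reads given above. SCD had 3976 such reads in MIP/5FU and 15603 in MIP101, a ratio of -1.04. HSD17B7 had 114 in MIP/5FU and 415 in MIP101 (-0.92), and ELOVL6 had 141 and 465 (-0.78). The ratios of ACAT2, FDPS, FASN and TM7SF2 were -0.72, -0.72, -0.69 and -0.61.

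Since MIP/5FU is 1 clone, each gene was also set beside the 40 nearest tested protein-coding genes, fewer where the chromosome ended. Of the 32 genes, 28 lay below the median ratio of their neighbours, beside 50.1% of other protein-coding genes, and the median difference was -0.29. After subtraction, 3 were 1.5-fold lower, beside 6.52%, and 1 was 1.5-fold higher, beside 7.14%. The 3 were SCD at -1.06, FASN at -0.86 and TM7SF2 at -0.82, and the other was FADS2 at 1.36. None of the 40 neighbours of SCD had a ratio below its own.

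The 4 other genes lower at 1.5-fold lay in regions that were themselves lower in MIP/5FU. The median of the neighbours was -0.41 around ACAT2, -0.35 around HSD17B7, -0.34 around ELOVL6 and -0.19 around FDPS, and these genes differed from it by -0.39, -0.29, -0.37 and -0.56. SCAP lay in such a region as well, with neighbours at -0.41 and a difference of 0.12. The only others above their neighbours were SC5DL, INSIG2 and FADS2. Whether those regions differ in gene copies between the lines was not tested.

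**Figure D5:**
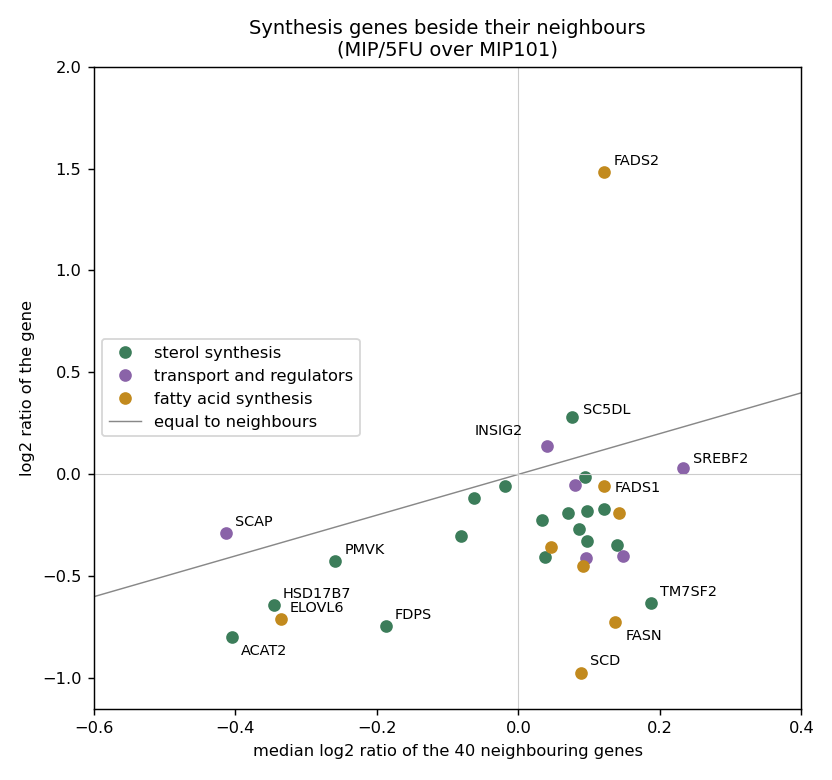
The log2 ratio of each of the 32 genes (vertical) against the median log2 ratio of its neighbouring genes (horizontal), both MIP/5FU over MIP101; the line marks equal values. SCD, FASN and TM7SF2 fall far below the line with neighbours above 0, while ACAT2, HSD17B7, ELOVL6 and FDPS have neighbours below 0.

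Other genes of lipid metabolism, 102 tested in 8 lists, gave a median ratio of 0.02, with 47 below 0 and 55 above. At 1.5-fold 9 were lower and 8 higher, shares near those of all tested genes. The lists were chosen with earlier results of these data known. Beside the counts of each list below, 46.3% of all tested genes lay below 0. At 1.5-fold 8.14% of them were lower and 8.67% higher. Each list is small, so its counts alone do not set it apart from these shares. The supply of NADPH and electrons had the lowest median of the 8 lists, -0.27, with 7 of 10 genes below 0. In it IDH2 (mitochondrial isocitrate dehydrogenase) had 35.0 RPKM in MIP/5FU and 65.1 in MIP101, and CYB5B (a cytochrome b5) had 66.6 and 104, ratios of -0.89 and -0.64. IDH1, the cytosolic isocitrate dehydrogenase, had 143 RPKM in MIP/5FU and 195 in MIP101, a ratio of -0.45.

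Among 10 genes of SREBP processing and sterol regulation 8 lay below 0, with a median of -0.17. MYLIP, a ubiquitin ligase induced by sterols, had 5.43 RPKM in MIP/5FU and 11.5 in MIP101 (-1.08), the only one counted. NR1H3, the nuclear receptor LXR alpha, had 7.33 RPKM in MIP/5FU and 9.47 in MIP101 (-0.37). Of 14 genes of sterol uptake, efflux and storage 2 were higher, the lipoprotein receptor LRP1 (1.21; 1.24 RPKM in MIP/5FU and 0.533 in MIP101) and the efflux pump ABCA1 (1.20, on 87 and 69 reads). NPC2, a sterol carrier of the lysosome, had a ratio of -0.52.

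Of 13 other genes of elongation and desaturation 3 were lower and 1 higher. HSD17B12, the ketoacyl-CoA reductase of the elongation cycle, had 17.9 RPKM in MIP/5FU and 43.9 in MIP101 (-1.29). MID1IP1, an activator of acetyl-CoA carboxylase, had 21.7 RPKM in MIP/5FU and 34.1 in MIP101 (-0.65), and PTPLB, a dehydratase of that cycle, had 35.4 and 53.8 (-0.60). The elongase ELOVL7 had 14.8 RPKM in MIP/5FU and 8.04 in MIP101 (0.88). The median of this list was 0.02.

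Glycerolipid synthesis had 3 higher and 2 lower genes of 16 and a median of 0.05. DGAT1 and DGAT2, both of which make triglyceride, went apart, at 2.45 RPKM in MIP/5FU and 1.53 in MIP101 for DGAT1 (0.68) and 0.572 and 1.04 for DGAT2 (-0.86). The lipid droplet protein ADFP was at 0.89 on 225 reads in MIP/5FU and 222 in MIP101, PCYT1A of phosphatidylcholine synthesis at 0.69 and the lipase PNPLA3 at -0.81. Fatty acid oxidation, the opposing path, had a median of 0.10 over 18 genes, with 2 higher (the enoyl-CoA isomerase DCI at 0.96 and the dehydrogenase ACADS at 0.73, on 136 reads in MIP/5FU and 150 in MIP101) and 1 lower (SLC25A20, the carnitine carrier, at -0.79). Isoprenoid branches (13 genes, median 0.03) and ketone and acetyl units (8 genes, median 0.15) had 0 counted in either direction, with NUS1 of dolichol synthesis at -0.40 and the ketone body dehydrogenase BDH1 at 0.56 farthest from 0.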

How the data were processed

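Polyadenylated RNA of MIP/5FU and MIP101, 1 library each, was read as paired 42-mers or 36-mers after 10 cycles of PCR, per the labels. The authors placed reads on features of Ensembl release 53, per the file headers and names, on hg18, per the submitters' processing notes; an aligner was not given in the sources used here. Deposited gene, junction and boundary files hold raw read counts, which the authors did not normalize. All files hold coverage as deposited, summed by the authors as bases per feature, and a normalized coverage per base, also the authors'. Files of exon regions and transcripts carry coverage without counts, contrary to what the design assumed. Read equivalents, the coverage divided by the average number of bases of a read, replaced counts there: 39.8 bases in MIP/5FU and 40.4 bases in MIP101.

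Computed here were log2 ratios of shares of gene reads after adding 0.5 reads, with exact conditional (Clopper-Pearson) 95% intervals, RPKM from reads and exon bases, and indices of features (features needed 50 read equivalents if exon regions or transcripts and 20 reads if junctions or boundaries, and their genes 200 reads in total with 10 from each line; the counting error of the gene was added to the interval). Ratios from summed junction reads used shares of all junction reads in place of gene reads. Neighbours were 20 tested protein-coding genes a side, without the 32. A bound against 0 reads used a floor of 3 reads per library. The design allows no test, so no p-value is given. Promoter windows are from RefSeq. All 32 genes are named; of each other lipid list, the genes counted at 2-fold and up to 4 with the largest absolute ratio, with those counted at 1.5-fold, FADS3 and the cell type markers added after their values were seen; some genes of these lists are not reported here. The 32 genes, the lists and 1.5-fold as the size were chosen with earlier results of these data known. Scaling, coverage, read minima, sizes, neighbour numbers and window length were varied. Calls were tested on simulated data that held counting error only, so spread between libraries and copies from PCR were not covered. Software comprised edgeR 4.0.16 in R 4.3.3 (TMM factors only) and Python 3.11.15 with matplotlib 3.10.9, scipy 1.17.1, pandas 2.3.3 and numpy 2.4.6.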

Additional observations from a re-analysis of the deposited data

How the results depend on the processing

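No ratio of a counted gene changed direction under median-ratio scaling, TMM factors, the authors' normalized coverage, the median of exon regions or junction reads, and 7 genes stayed 1.5-fold lower under each of these, 8 by junction reads. The number with a ratio below 0 was 29 under both scalings, 28 by coverage, 25 by exon regions and 26 by junctions. Junction ratios were scaled to all junction reads, and the part of that scaling in their differences from gene ratios was not tested. Median ratios under median-ratio scaling and TMM factors were -0.33 and -0.35 for all 32 genes, -0.32 and -0.34 for sterol enzymes, -0.20 and -0.22 for transport and regulators and -0.44 and -0.45 for fatty acid enzymes. At 2-fold the lower genes numbered 0 in all 32, in the sterol and in the fatty acid enzymes with gene-read scaling, but SCD crossed 2-fold under both other scalings (-1.01 and -1.02), by exon regions (-1.03) and by junction reads (-1.04). The other lipid lists held 2 lower and 2 higher at 2-fold. At a log2 ratio of 0.32 the lower genes numbered 15 of the 32, 8 sterol, 2 regulator and 5 fatty acid genes. The share of all tested genes lower at that size was not computed, so the 15 has no background beside it. After subtraction of neighbours 3 of the 32 and 1 sterol enzyme were lower, and with the 20 nearest the median difference was -0.33. At an index of 1.5-fold 1 exon region was higher and 1 junction lower. Of the 4 higher boundaries, 2 were counted with doubled read minima; against the median boundary of the gene, 0 were higher and 1 lower. The causes of these changes were not tested. No paired analysis was possible because each line has 1 library. FADS1, with 252 reads in MIP/5FU, is limited by depth.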
